A study of Mus musculus with 45 samples.

Results

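The cytosolic ribosomal protein genes encode the protein part of the 80S ribosome, the machine that translates mRNA in the cytoplasm. They were taken by name from the deposited gene table, as protein-coding genes called Rpl or Rps with a number, plus Rpsa, Rplp0, Rplp1 and Rplp2. The rule found 77 of 55401 genes, 46 for the large (60S) subunit and 31 for the small (40S) subunit, and used no measured value. All 77 had counts in each of the 15 groups and passed the filter on low values in every comparison. Detection alone does not test the label, which rests on the gene names.

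RNA-seq was done on 45 libraries of mouse embryonic stem cells (mESCs), 3 in each group, to find which transcripts depend on EHMT2, a methyltransferase that places H3K9me2. The time course, washout and sorting experiments used the line EHMT2-dTAG-mcherry (strain BL6/129), in which both Ehmt2 alleles carry a degron tag and the degrader dTAG-13 removes the protein. The time course gave clones 17, 20 and K71 DMSO or dTAG for 24 h or 7 d, and the washout experiment gave the same clones DMSO for 15 d, dTAG for 15 d, or dTAG for 7 d and then DMSO for 8 d (Recovery). A derivative that carries a MERVL-GFP reporter received DMSO or dTAG for 72 h and was then sorted. Its GFP-negative fraction is called mESC here and its GFP-positive fraction 2CLC, for the 2-cell-like cells that are rare in mESC cultures and express genes of the 2-cell embryo. The sorted RNA came from a fixed small number of cells and went into low-input libraries. In the Dppa4 experiment WTJ1 mESCs (WT) and DPPA4KO mESCs (KO), in which Dppa4 was disrupted by CRISPR, were kept for 48 h in DMSO or in UNC0638, which blocks the catalytic activity of EHMT1 and EHMT2. DPPA4 is a chromatin factor that activates genes of the 2-cell state. All cells grew in FBS and LIF on mouse embryonic fibroblast feeders, so each bulk library also held feeder RNA. Only the 12 libraries of the Dppa4 experiment had columns of their own. The other 11 groups were available as the authors' means over libraries, so their differences have no error and no test.

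Each ribosome holds a single copy of almost every one of these proteins, and cells keep the mRNAs at matched levels. The genes are spread over the genome and are transcribed by RNA polymerase II, while the ribosomal RNA comes from RNA polymerase I. Their mRNAs mostly begin with a run of pyrimidines, the 5′ terminal oligopyrimidine (TOP) tract, through which mTOR and LARP1 set how well they are translated. MYC and its relative MYCN raise transcription of ribosomal protein genes, of nucleolar assembly factors and of RNA polymerase I, and both are active in mESCs. Changes in translation along the TOP tract cannot be seen in RNA levels.

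The 77 genes lie on 19 chromosomes of GRCm38 (mm10), 4 of them on X. Their chosen transcripts have 3 to 10 exons (median 5) and 345 to 5130 bases (median 751). The aligner was run without introns, so a read that spans a splice junction could not be placed on its gene, and for 30 of the 77 genes the longest exon is under 200 bases. Mouse has many intronless copies of these genes, and 311 annotated pseudogenes carry a ribosomal protein gene's name, 308 of them the name of 1 of the 77. At least 1 such copy is annotated for 61 of the genes. In the time course the pseudogenes held 2.33 to 2.42 counts for each count on the 77 genes, in the washout experiment 2.85 to 3.04, in the sorted cells 6.08 to 7.73, and in the Dppa4 libraries 6.65 to 8.50. The intronless copy Rps27rt had a mean of 7820 normalized counts in DMSO 24 h, while Rps27 itself had 771. The counts below are therefore reads that lay within exons and, where copies exist, only a part of the gene's reads. Values of a single member with many copies are uncertain.

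The starts of 8 genes on which later results turn are shown, 4 with and 4 without a pyrimidine run at the annotated start. Each window holds 10 bases before the RefSeq start (GRCm38.p6) and 20 from it on, on the transcribed strand, and capitals mark a C within 5 bases of the start followed by at least 4 C or T. The table gives several starts for 8 members, and a run at any of them was counted. In 3 of these 8 members only some starts had a run, Rps24 and Rps21 among them, whose start with the run is shown.
Rplp2, chr7:141447641-141447670, plus strand: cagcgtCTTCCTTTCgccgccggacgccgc
Rps24, chr14:24490668-24490697, plus strand: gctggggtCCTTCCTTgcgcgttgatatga
Rpl38, chr11:114668570-114668599, plus strand: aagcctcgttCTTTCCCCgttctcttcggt
Rps21, chr2:180257369-180257398, plus strand: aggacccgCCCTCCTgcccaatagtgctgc
Rplp0, chr5:115559457-115559486, plus strand: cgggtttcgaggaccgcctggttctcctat
Rpl22, chr4:152325716-152325745, plus strand: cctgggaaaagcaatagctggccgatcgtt
Rps7, chr12:28635934-28635963, minus strand: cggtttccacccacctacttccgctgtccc
Rpl36a, chrX:134585644-134585673, plus strand: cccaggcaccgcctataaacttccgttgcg
Of the 57 members that matched the RefSeq start table, 27 (47.4%) had such a run, against 5718 of 27025 genes in the table (21.2%). No run says only that these letters are not near the annotated start, which may lie some bases away from the start that is used. The median log2 difference at 15 d was -0.20 in the 27 genes with a run and -0.20 in the 30 without.

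The 77 genes together took 1.60% to 1.87% of all gene counts in the time course and the washout experiment, 0.617% to 0.808% in the sorted cells and 0.914% to 1.39% in the Dppa4 libraries. The experiments differ in library preparation and in the number of junction reads lost, so shares were compared only within an experiment. In each pair of the time course and washout experiment the group with dTAG had the lower share. It was 1.77% in DMSO 24 h and 1.63% in dTAG 24 h. It was 1.71% in DMSO 7 d and 1.60% in dTAG 7 d, so the DMSO groups differed as well. The share was 1.87% in DMSO 15 d, 1.71% in dTAG 15 d and 1.79% in Recovery. In sorted mESC it was the higher in dTAG, at 0.808% against 0.738%, and in 2CLC the lower, at 0.617% against 0.676%. The summed normalized counts of the module in 2CLC went the other way, from 65780 in DMSO to 71066 in dTAG, as the sum over all genes was higher too. The 40S genes held 35.2% to 36.8% of the module's counts in the time course and washout groups and 32.4% to 35.3% in the sorted groups.

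**Figure D1:**
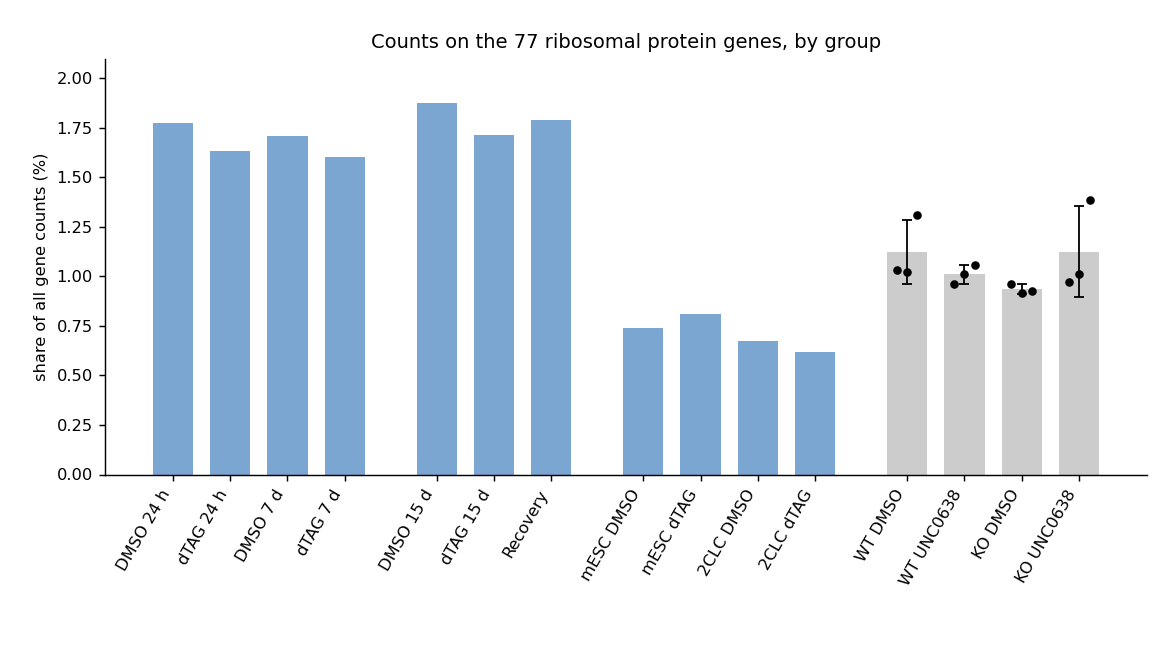
Share of all gene counts (%, linear axis from 0) that lay on the 77 ribosomal protein genes in each of 15 groups. Blue bars are the authors' group means with no error available, and grey bars are means of 3 libraries of the Dppa4 experiment with the SD as error bar and each library as a point. The shares run from 0.617% in 2CLC dTAG to 1.87% in DMSO 15 d.

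Levels between genes were compared per kilobase of the chosen transcript. In DMSO 24 h the highest were Rpl8 with 21428 normalized counts per kilobase, Rpl41 with 18841, Rplp1 with 16278, Rpl4 with 15480 and Rps15 with 15192. Rpl8 and Rpl4 are core proteins of the large subunit, Rpl41 is the smallest ribosomal protein, and Rplp1 belongs to the P-stalk, the arm that recruits elongation factors. The lowest were Rpl38 with 187 and Rpl24 with 201, although ribosomes carry both proteins. Rpl38 has a longest exon of 123 bases and Rpl24 of 164. Over the 77 genes the level per kilobase had a Spearman's rho of 0.11 with the length of the longest exon (across genes). Both quantities rest on the chosen transcript, which had 5130 bases for Rps15a and 3706 for Rps20. The rho is therefore no measure of how many junction reads were lost.

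After 24 h of dTAG the module lay slightly below DMSO. The median log2 difference of the 77 genes was -0.12, with 7 genes above 0 and 70 below, while the median of all 17970 genes was 0.00 with 49.4% below 0. A difference past 1.2-fold, used here only to count larger changes, was seen downward in 13 of the 77 genes (16.9%) and upward in none. Among all genes 20.4% were lower and 20.8% higher by that much, so the members' share past 1.2-fold was no larger than the background. Among the 5828 genes with a mean of at least 500, 10.4% were lower and 14% higher, against 15.5% and 0 of the 71 members at that level.

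The lowest member at 24 h was Rpl36 (chr17:56613416-56614243, plus strand, 4 exons), a small protein of the 60S subunit, with a mean of 1429 in DMSO and 1039 in dTAG, a log2 difference of -0.46. Rps15a, of the 40S subunit, differed by -0.43, Rpl22, an RNA-binding protein on the outer face of the 60S subunit, by -0.38, and Rps27 and Rpl26 each by -0.36. The highest were Rpl30 at 0.18, Rps29 at 0.07, Rpl7 at 0.05, Rplp0 at 0.04 and Rpl31 at 0.03. The lower values thus came from both subunits, with a median of -0.12 in 60S genes and -0.11 in 40S genes. Among the fixed examples, Rplp2 of the P-stalk had -0.27 and Rpl3, at the peptidyl transferase centre, had -0.20. Rplp1 was at -0.08, Rpsa at -0.06, Rps6, the target of S6 kinase, at -0.05 and Rpl41 at -0.02. Cell type markers moved as well at 24 h. All 15 2CLC markers were higher (sum 319 in DMSO and 3717 in dTAG), 5 of 10 mESC markers were lower and 1 higher (101782 and 92897), and 5 of 10 feeder markers were higher and 3 lower (23141 and 21102). Their part in the module's difference was not tested.

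The DMSO groups show what such differences amount to without removal of EHMT2. Between DMSO 7 d and DMSO 24 h the median was -0.06, with 24 genes above 0 and 53 below, and 5 genes were lower by 1.2-fold or more and none higher (background 16.3% lower and 17% higher). Rps15a differed by -0.46, Rpl22 by -0.32, Rps10 by -0.30, and Rps19 and Rps15 each by -0.27 between these untreated groups, while Rpl36a and Rpl30 each had 0.19. For Rps15a and Rpl22 the change with culture time in DMSO was therefore about as large as the difference with dTAG at 24 h, and the comparisons share the DMSO 24 h libraries.

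At 7 d of dTAG the module was close to DMSO. The median was -0.04, with 30 genes above 0 and 47 below. By 1.2-fold or more 1 gene was higher and 4 were lower, 1.30% and 5.19% of the members, against 25.3% and 24.9% of all genes. Rpl36 was again lowest at -0.44, with means of 1276 and 942. Rpl22 had -0.32, Rpl9 -0.29, Rps2 -0.26 and Rpl28 -0.25. Rpl30 was the gene higher by 1.2-fold, at 0.40 with means of 738 and 972, and Rpl7 (0.15), Rpl27 (0.14) and Rpl41 (0.12) were among the next. Rpl30 and Rpl7 are proteins of the 60S subunit, and RPL30 is known to bind and limit its own transcript.

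The neighbours of the module in the pathway stood elsewhere at 7 d. Of 63 ribosome biogenesis genes, which process rRNA and assemble the subunits, 38 were higher by 1.2-fold or more and none lower, with a median of 0.31, from Dkc1 (pseudouridine synthase) at -0.21 to Nop16 at 0.73. Of 14 genes of RNA polymerase I and its factors 5 were higher and none lower (median 0.24, highest Cd3eap at 0.55). Of 78 mitochondrial ribosomal protein genes 29 were higher and 1 lower, with a median of 0.18, a lowest value of -0.47 in Mrps10 and a highest of 0.78 in Mrpl20. Myc had a mean of 87.9 in DMSO 7 d and 330 in dTAG 7 d, a log2 difference of 1.90, and stood highest among 15 regulators, of which Tsc1, a brake on mTOR, was lowest at -0.35. At 24 h Myc was at 0.54, while the biogenesis genes had a median of 0.01 with 2 higher and 5 lower. Feeder markers moved too, with 8 of 10 higher at 7 d and none lower (summed mean 16856 in DMSO and 19564 in dTAG), and all 15 markers of 2CLCs were higher (sum 477 and 11089). The part of feeders and 2CLCs in these medians was not tested, and in bulk RNA fewer cells of a type and less RNA per cell cannot be told apart.

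After 15 d of dTAG 76 of the 77 genes lay below DMSO. The median was -0.20, with the middle 50% of genes from -0.25 to -0.15, while the median of all 17377 genes was -0.02 and 53.1% lay below 0. Past 1.2-fold 12 genes were lower (15.6%) and none higher, against 17% lower and 21.4% higher among all genes, so most members differed by a small amount and in the same direction. With the differences centred on the genes outside the module the median was -0.16, and 6 genes were lower by 1.2-fold.

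The largest differences at 15 d were in the 40S genes Rps29 (-0.47, mean 146 in DMSO and 105 in dTAG) and Rps14 (-0.35, 2710 and 2119), followed by the 60S genes Rpl35 (-0.34), Rpl7 (-0.32) and Rpl6 (-0.32). RPS14 lies on the platform of the small subunit and is known for its loss in a form of anaemia. Rpl22 was the gene above 0, at 0.06 with means of 3633 and 3775, and Rps12 (-0.04) and Rpl36 (-0.06) came next to it. Rplp0 was at -0.16, Rplp1 at -0.10, Rplp2 at -0.20, Rpsa at -0.21, Rpl3 at -0.25, Rps6 at -0.17 and Rpl41 at -0.22. Rpl36, the lowest gene at 24 h and 7 d, thus barely differed at 15 d, and Rpl22 had changed sign.

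At 15 d related genes lay below DMSO as well. Mitochondrial ribosomal protein genes had a median of -0.22 with 32 of 78 lower and none higher, from Mrpl14 at -0.53 to Mrpl23 at 0.12. Translation factors of the TOP class, which share the pyrimidine start, had -0.24 with 9 of 18 lower and none higher, from Eif3m at -0.48 to Pabpc1 at 0.21. Ribosome biogenesis genes had -0.19 with 20 of 63 lower and none higher, from Nip7 at -0.44 to Nop58 at 0.18, and the RNA polymerase I genes -0.20 with 3 of 14 lower. Myc was at -0.34. Of the cytosolic ribosomal protein genes that the name rule leaves out, Fau had -0.29 and Rack1 -0.17. Ribosomal protein pseudogenes had -0.20 over 172 genes. In the same groups 7 of 10 feeder markers were higher (sum 18439 and 22643), 6 of 10 mESC markers were lower (93731 and 79221) and all 15 2CLC markers were higher (843 and 21586). Marker RNA in bulk libraries does not tell a change in cell makeup from a change of these genes within cells. What the marker differences add to the module's difference was not tested.

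After washout the module lay nearer to DMSO. In Recovery against DMSO 15 d the median was -0.08, with 18 genes above 0 and 59 below, and past 1.2-fold 1 gene was higher and 9 lower (background 18.1% and 15.2%). Against dTAG 15 d the median was 0.13, with 63 above 0 and 14 below, and 7 genes were higher and 2 lower (background 21.2% and 21.9%). Both comparisons share the Recovery libraries. Centred on genes outside the module, 1 gene was higher and 2 were lower against dTAG. All 10 feeder markers were lower in Recovery, with a sum of 11171 against 18439 in DMSO 15 d, and the part of this in the values was not tested.

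Some members lay further from DMSO in Recovery than in dTAG. Rplp2 had means of 949 in DMSO, 827 in dTAG and 684 in Recovery, a log2 difference of -0.47 between Recovery and DMSO. Rps27 (-0.46), Rps21 (-0.38) and Rpl28 (-0.37) did so as well, while Rps29 (-0.42) stood close to its value in dTAG. Rps21 and Rplp2 were the lowest against dTAG as well, at -0.31 and -0.27. Rpl22 was higher in Recovery, with a mean of 4604 against 3633 in DMSO (0.34) and 3775 in dTAG (0.29), and Rpl13a had 0.15 and 0.29. Highest against dTAG were Rpl4 at 0.33, Rpl6 at 0.31 and Rpl15 at 0.29, which encode large-subunit proteins.

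**Figure D2:**
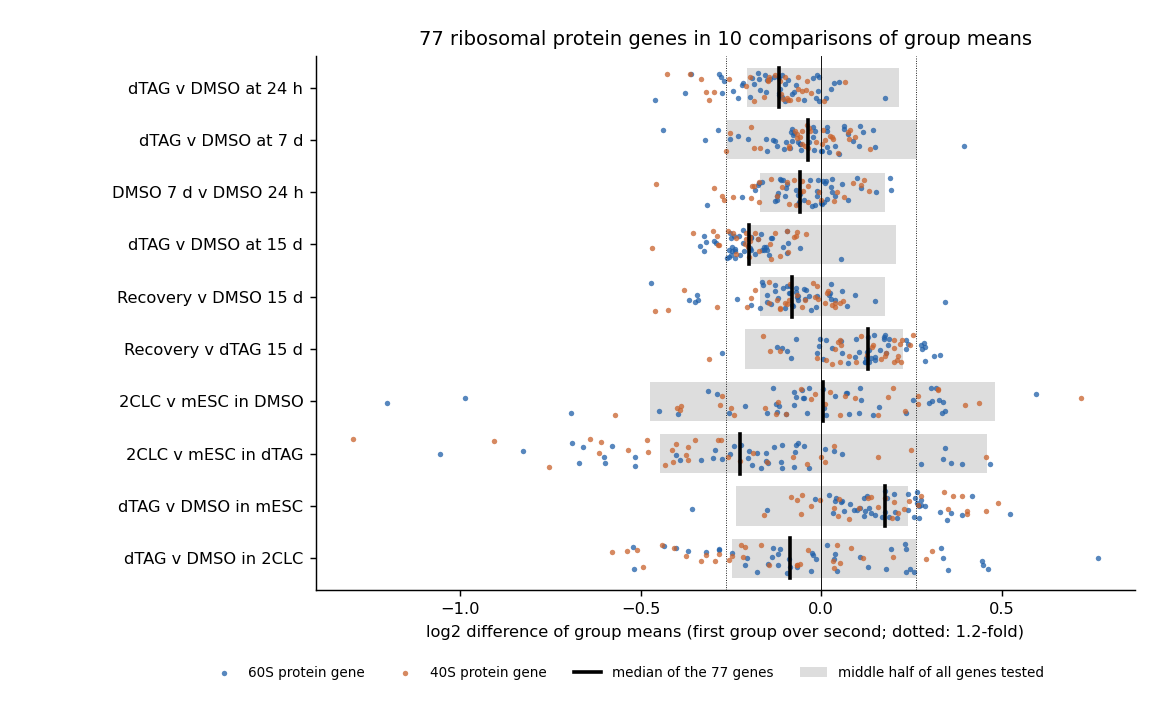
Log2 difference of group means (linear axis, first group over second) for each of the 77 ribosomal protein genes in 10 comparisons. Blue points are 60S and orange points 40S genes, the black bar is the median of the 77, the grey band holds the middle 50% of all genes tested, and dotted lines mark 1.2-fold. The points lie left of 0 at 15 d of dTAG (76 of 77) and spread most widely in the 2CLC comparisons.

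In sorted DMSO cells 2CLCs and mESCs held the module at the same median level while single members moved apart. The median was 0.01, with 39 genes above 0 and 38 below. By 1.2-fold or more 16 genes were higher and 13 lower (20.8% and 16.9%), against 33% and 36.3% of all genes, so both shares lay below those of all genes. The sorted groups were 2CLC and mESC by their markers, with all 15 2CLC markers higher (sum 1337 in mESC and 225751 in 2CLC) and 8 of 10 mESC markers lower. Of 9 feeder markers tested 6 were higher and 3 lower, while the summed feeder counts were lower in 2CLC (10088 in mESC and 6888 in 2CLC).

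Rpl22 (chr4:152325742-152334071, plus strand, 4 exons) had the lowest value, -1.203, with a mean of 1544 in mESC and 670 in 2CLC. Rpl38, a protein known for its part in the translation of Hox mRNAs, had -0.99 but only 36 and 18 normalized counts. Rplp2 was at -0.69 (190 and 117), Rps21 at -0.57 (49 and 33) and Rpl28 at -0.45 (326 and 239). Rps20 at 0.72 (595 and 981) and Rplp0 at 0.59 (1648 and 2489) were highest, and Rpl23 at 0.34 was among the 5 highest. The P-stalk genes thus went apart, since Rplp0, its base, was higher, Rplp2 lower, and Rplp1 at 0.07.

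With dTAG the 2CLCs lay below mESCs for most members, and less so among members with high counts. The median was -0.23, with 14 genes above 0 and 63 below, and 7 genes were higher and 35 lower (9.09% and 45.5%, background 32% and 36.2%). The 40S genes had a median of -0.37, with 1 higher and 19 lower of 31, and the 60S genes -0.17, with 6 higher and 16 lower of 46. Among the 28 members with a mean of at least 500 the median was -0.08, with 7 higher and 6 lower (25% and 21.4%), against 31.9% and 27.8% of all genes at that level. The summed counts of all 77 differed by 0.01. When the counts of the named pseudogenes were added to each gene the median was 0.22, with 35 genes higher and 19 lower. The direction of the module in this comparison therefore depended on whether reads on intronless copies were included.

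Rps21 was lowest at -1.30 (means 65 and 26), followed by Rpl22 at -1.06 (1205 and 579), Rps14 at -0.91 (423 and 225), Rpl37 at -0.83 (176 and 98.9) and Rps13 at -0.75 (113 and 66.5). Rps13 had a difference of 0.32 when its pseudogenes were added. Rplp0 (0.47), Rps20 (0.46), Rpl13a (0.39), Rpl41 (0.36) and Rpl15 (0.34) were highest. Rpl22 and Rps21 were among the 5 lowest and Rplp0 and Rps20 among the 5 highest in both comparisons of 2CLC with mESC, which share no libraries. Mycn, of the Myc family, differed by -1.44 in DMSO and -0.90 in dTAG and was the lowest regulator in both. Among translation factors of the TOP class Tpt1 was highest (0.92 and 1.04) and Eif4b lowest (-0.86 and -0.82).

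The effect of dTAG itself was opposite in sign in the median of the sorted populations, with no test possible. In mESC the median was 0.18, with 67 genes above 0 and 10 below, and 23 genes were higher and 1 lower by 1.2-fold (29.9% and 1.30%, background 23.4% and 22.9%). In 2CLC it was -0.09, with 29 above and 48 below, and 9 were higher and 19 lower (11.7% and 24.7%, background 25% and 23.7%). Both counts changed with the minimum level and with the reads of copies. With a mean of at least 500 in the comparison, 4 of 28 members were higher and 1 lower in mESC (14.3% and 3.57%), against 14.6% and 16.2% of all genes at that level. In 2CLC 6 of 30 were higher and 3 lower (20% and 10%), against 27.2% and 9.50%, so these shares lay below or near those of all genes. With pseudogenes added, 8 were higher and 2 lower in mESC, and 24 higher and 12 lower in 2CLC, where the median became 0.19.

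In mESC dTAG Rpl10 (0.52, mean 381 to 548), Rps12 (0.49), Rps29 (0.46), Rpl24 (0.42) and Rps21 (0.41) stood highest and Rpl22 lowest at -0.36 (1544 to 1205), with Rps24 at -0.16, Rpl38 at -0.15, Rpsa at -0.08 and Rps2 at -0.07. In 2CLC dTAG Rpl38 (0.77, 18 to 31), Rplp2 (0.46, 117 to 162), Rpl29 (0.45), Rpl14 (0.44) and Rpl12 (0.35) stood highest. Rps4x (-0.58, 481 to 322) stood lowest, and Rpl39 (-0.52), Rpl8 (-0.52) and Rps14 (-0.51) were among the 5 lowest. Rps4x is the X-linked gene of its protein, and Rpl10, also on X, encodes a protein that joins the 60S subunit late in its assembly. Ribosome biogenesis genes were higher in mESC dTAG, with 31 of 63 past 1.2-fold and 2 lower (median 0.26, from Utp18 at -0.44 to Utp20 at 0.75). Genes of the feeder marker list were higher with dTAG in both populations, 7 of 9 tested in mESC (sum 10088 and 12740) and 8 of 9 in 2CLC (6888 and 13632). With dTAG their sum was thus no lower in the GFP-positive than in the GFP-negative fraction. Whether these counts came from feeder cells was not tested. In the GFP-negative mESC fraction all 15 2CLC markers were also higher with dTAG (sum 1337 and 15226), and 6 of 10 mESC markers were lower and 1 higher (65974 and 56307). The part of these markers in the values was not tested.

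**Figure D3:**
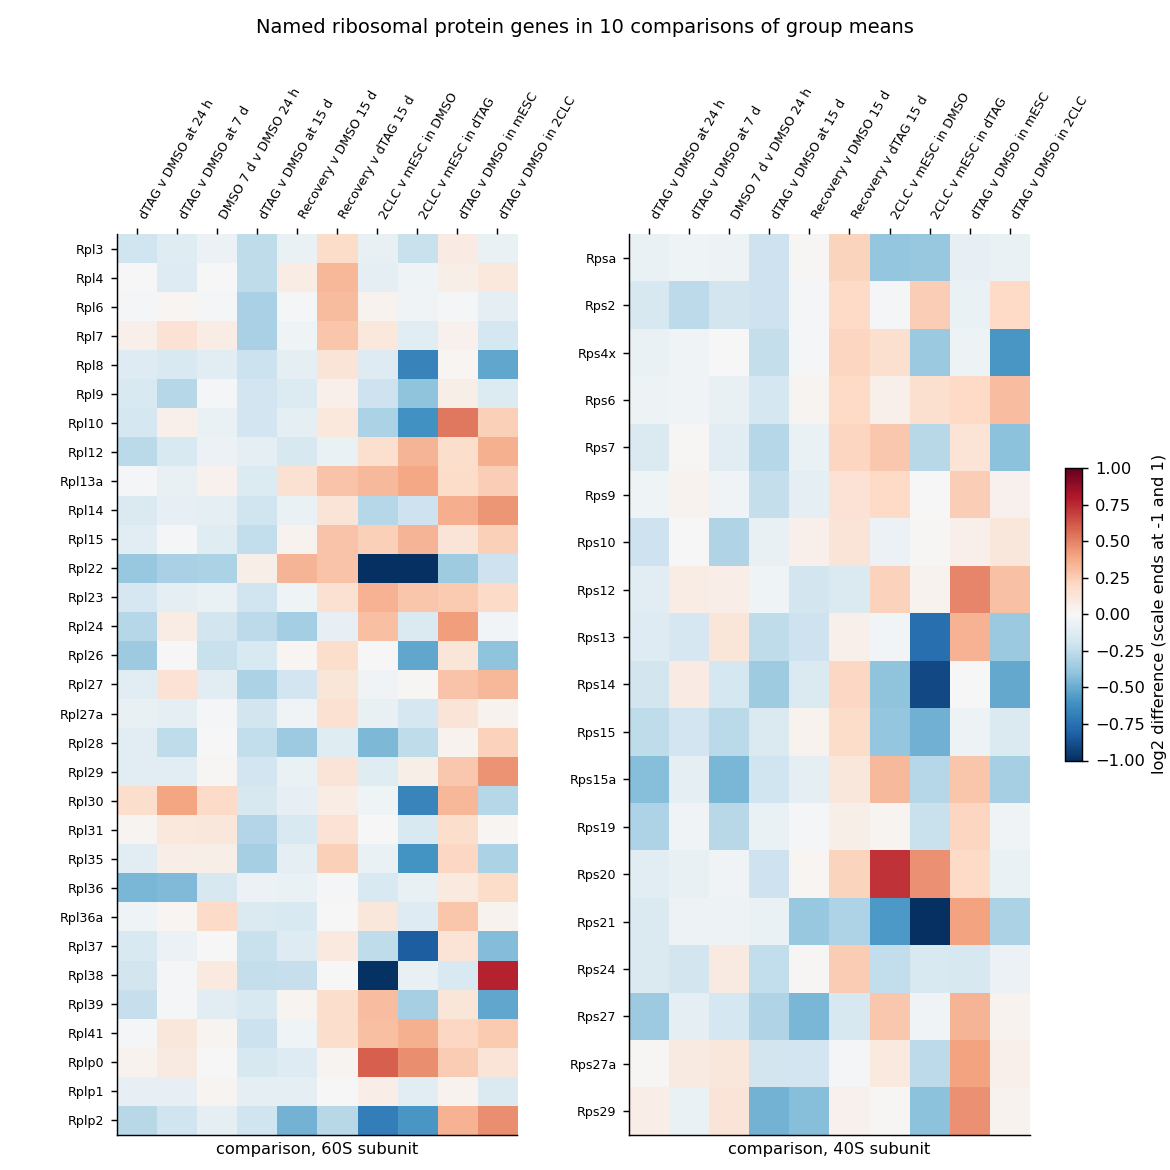
Log2 difference of group means for the ribosomal protein genes named in the text, 31 of the 60S subunit (left) and 19 of the 40S subunit (right), in 10 comparisons, from blue (lower in the first group) to red (higher), with colours ending at -1 and 1. Rpl22 is dark blue in both 2CLC columns (-1.203 and -1.06), and the 15 d dTAG column is blue in every gene shown but Rpl22.

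Some ribosomal proteins have tissue-restricted paralogs, which can take the place of the standard protein. Rpl10l, an intronless paralog of the X-linked Rpl10 that is expressed in male germ cells, had means of 212 in DMSO 24 h and 499 in dTAG 24 h (1.23), 214 and 1347 at 7 d (2.65), and 488 and 1619 at 15 d (1.73). It was 376 in Recovery. In sorted cells Rpl10l had a mean of 352 in mESC and 2858 in 2CLC with DMSO (3.02), and it was 1620 and 3734 with dTAG. Rpl39l, the paralog of Rpl39, had differences of 0.59, 1.42 and 0.56 at 24 h, 7 d and 15 d, and 1.43 between 2CLC and mESC in DMSO. Rpl22l1, the paralog of Rpl22, was at 0.07, 0.00 and -0.12 in the same dTAG comparisons and at -0.14 between 2CLC and mESC in DMSO, where Rpl22 was at -1.203.

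In the Dppa4 experiment each library held 8399885 to 12710949 reads on genes, and Dppa4 itself had 700 to 920 normalized counts in the 6 WT libraries and 0 in the 6 KO libraries. The values were tested with limma over 17258 genes on log2 of the normalized count plus 1. Libraries WT DMSO 3 and KO UNC0638 3 stood apart, with 144869 and 154040 counts on the 77 genes against 91246 to 107308 in the other 10. In each of them 71 of the 77 genes lay above their own mean over the 12 libraries, with a median deviation of 0.31 and 0.42. The calls and the median of each comparison are therefore given with and without both. As both were set apart by their counts on these same genes, a shift of the medians without them follows from that choice. Per the labels, 3 independent clones of each line received both treatments, so the p-values measure the spread between clones, although no label ties a library to a clone. The main fit did not pair the treatments by clone.

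**Figure D4:**
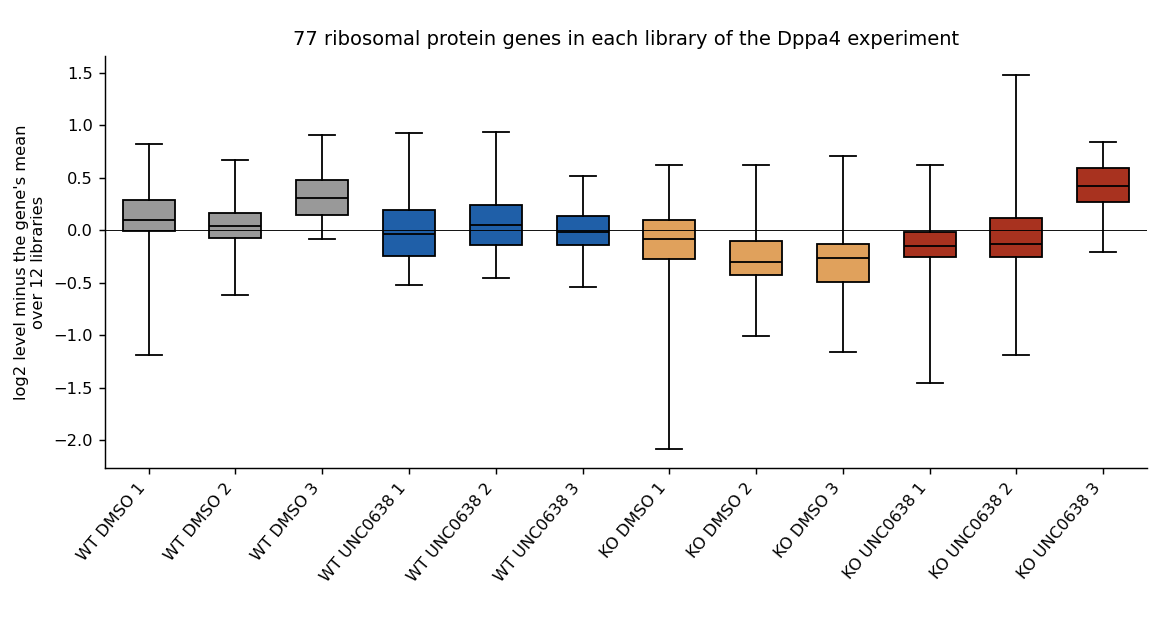
Deviation of each ribosomal protein gene from its own mean over 12 libraries (log2 normalized count) in every library of the Dppa4 experiment. Boxes show the middle 50% of the 77 genes with the median, and whiskers reach the lowest and highest gene. Medians lie at 0.31 in WT DMSO 3 and 0.42 in KO UNC0638 3 and between -0.30 and 0.10 in the other 10 libraries.

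In DMSO most members lay lower in KO than in WT cells. The median log2 fold change was -0.39, with 6 genes above 0 and 71 below, while the median of all genes was -0.03. By limma with Benjamini-Hochberg adjustment over all genes 8 members fell and none rose, 10.4% of the 77 against 4.25% of all genes lower and 2.39% higher. Without both libraries that stood apart 9 members fell (11.7% against 3.51% of all genes), 6 of them the same genes, and the median was -0.30. As single libraries were left out, 319 to 1822 of all genes were called. The number of members called then ranged from 1 to 14. It was 1 without WT DMSO replicate 1 or KO DMSO replicate 2, 3 without WT DMSO replicate 2 or KO DMSO replicate 1, 4 without WT DMSO replicate 3, 5 without KO DMSO replicate 3 or WT UNC0638 replicate 2, and 14 without KO UNC0638 replicate 3. Rps24 was called in each of these fits.

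Rps24 fell most clearly. It encodes a 40S protein and is known as a gene mutated in Diamond-Blackfan anaemia. Its normalized counts were 2284, 1943 and 1851 in WT DMSO and 1105, 978 and 1194 in KO DMSO, so the groups did not overlap, and the log2 fold change was -0.89 (SE 0.17, limma adjusted p = 0.0071). Rps7 (chr12:28630854-28635953, minus strand), another 40S protein, had 216, 154 and 170 in WT and 98.8, 79.5 and 84.7 in KO, a log2 fold change of -1.02 (adjusted p = 0.016). Rpl36a, an X-linked 60S gene, had 127, 130 and 85.7 in WT and 55.8, 46.9 and 63.8 in KO, also -1.02 (adjusted p = 0.032). In all 3 genes every KO library lay below every WT library. The genes were named because limma called them on these libraries, so this and the like separations below are description and not further support. The share of all genes that separate in this way was not counted.

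Rps27a, which is made as a fusion with ubiquitin, had 318, 285 and 309 counts in WT and 154, 177 and 166 in KO, a log2 fold change of -0.87 (limma adjusted p = 0.023). Rpl7, of the 60S subunit, had 1247, 1146 and 969 in WT and 583, 592 and 719 in KO, a change of -0.83 (adjusted p = 0.023). Among the other called members were Rps9 at -0.71 (adjusted p = 0.035) and Rps12 at -0.73 (adjusted p = 0.043), both of the 40S subunit. Without both libraries Rps12 was no longer called (adjusted p = 0.082), and Rpl27a, Rpl30 and Rpl3 were.

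Rps27 had the lowest value of all, -1.39, on 41.9, 67.7 and 84.8 counts in WT and 9.8, 35.7 and 34.8 in KO, and did not pass (limma adjusted p = 0.080). At the other end Rps21 was at 0.58 and Rpl22 at 0.30 (adjusted p = 0.44 and 0.20). Rplp0 was at -0.28, Rplp1 at -0.46, Rplp2 at -0.61, Rpsa at -0.23, Rpl3 at -0.63, Rps6 at -0.11 and Rpl41 at -0.39, and the lowest adjusted p among these 7 was 0.051. Of 63 ribosome biogenesis genes 5 fell and none rose (median -0.39), among them Nop56 by 0.87 and Nip7 by 0.76. Of 136 pseudogenes tested 12 fell. Of 10 feeder markers 2 fell, with a median of -0.80 and summed counts of 12476 to 18031 in WT DMSO and 10197 to 12013 in KO DMSO, and the part of feeder RNA in the module's change was not tested. The WT and KO lines also differ as lines, which cannot be told apart from the loss of Dppa4.

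UNC0638 in WT cells changed no member that could be called. Their median was -0.17, with 17 genes above 0 and 60 below, and the lowest adjusted p was 0.56. No gene of all 17258 was called by limma or by edgeR, DESeq2 called 19 genes, and 1504 genes (8.71%) had an unadjusted limma p under 0.05, 3 of the 77 members among them. Rps10 was lowest at -0.50 and Rpl37 highest at 0.32. Without both libraries the median was -0.09 and limma again called no member.

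In KO cells 3 members rose with UNC0638, and their calls did not hold in most fits with a single library left out. The median was 0.25, with 67 genes above 0 and 10 below, and 3 rose and none fell, against 0.504% of all genes higher and 0.0811% lower. Rps24 had 1737, 2338 and 2159 counts with UNC0638, above the 978 to 1194 of KO DMSO (0.92, SE 0.17, limma adjusted p = 0.036). Rpl7 had 935, 1348 and 1611 (1.01, SE 0.20, adjusted p = 0.039) and Rps27a had 251, 368 and 428 (1.04, SE 0.21, adjusted p = 0.040), above every KO DMSO library in both. Without both libraries none was called (adjusted p = 0.072 for Rps24, 0.074 for Rpl7 and 0.094 for Rps27a), and the median was 0.08. No member was called either with no filter on low counts, or without WT UNC0638 replicate 2, KO DMSO replicate 1 or 2, or KO UNC0638 replicate 2 or 3 alone. The count was 1 without WT DMSO replicate 2 or WT UNC0638 replicate 1 or 3, and 8 without KO UNC0638 replicate 1. It stayed at 3 without WT DMSO replicate 1 or 3, and was 2 without KO DMSO replicate 3. Over all genes 2 to 615 were called as single libraries were left out. The 3 genes are among those that fell in KO DMSO, and both comparisons use the same KO DMSO libraries. With UNC0638 the 3 genes stood near WT, at -0.14, 0.08 and -0.09 in KO against WT.

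Under UNC0638 1 member differed between KO and WT. Rpl22 had 1934, 1676 and 1856 counts in WT and 3254, 2960 and 2803 in KO, a log2 fold change of 0.72 (SE 0.14, limma adjusted p = 0.0089), against 1.77% of all genes called higher and 2.71% lower. In DMSO it had 2098, 1814 and 2204 in WT and 2640, 2431 and 2456 in KO (0.30, adjusted p = 0.20). Every KO library thus lay above every WT library, in both treatments. Without the libraries that stood apart it was 0.77 (adjusted p = 0.0072), and without WT UNC0638 replicate 2 it was 0.66 and not called (adjusted p = 0.067). The median of the 77 genes was 0.07, with 43 above 0 and 34 below. Without both libraries the median was -0.12, with 22 above 0 and 55 below. KO UNC0638 3 was set apart by its high counts on these genes, so a lower median without it follows from that choice. The direction of the module under UNC0638 thus rested on that library.

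No gene could be called for a difference of the UNC0638 effect between KO and WT. That does not show equal effects. The 12 2CLC markers tested had a median effect of 2.48 in WT and 0 in KO. Their median difference was -2.48, and none of them was called either. By limma no gene passed for the difference of the effects, and edgeR and DESeq2 called none either, while 1076 genes (6.23%) had an unadjusted p under 0.05, 20 of them members and all 20 with the higher effect in KO. The median difference of the 77 genes was 0.48, with 70 above 0, and 0.14 without both libraries, with 57 above 0, 6 at an unadjusted p under 0.05 and none called. A smaller median difference without WT DMSO 3 and KO UNC0638 3 follows from their choice, since both were set apart by high counts on these genes.

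Rpl10l was the paralog that changed. It had 1024, 809 and 1034 counts in WT DMSO, 1561, 1285 and 1410 in WT UNC0638, 46.0, 71.3 and 135 in KO DMSO and 137, 186 and 365 in KO UNC0638. Rpl10l fell in KO against WT, with a log2 fold change of -3.62 in DMSO (limma adjusted p = 2.2e-05) and -2.74 under UNC0638 (adjusted p = 2.6e-04), and the groups did not overlap. Of the 12 2CLC markers tested 9 fell in KO DMSO, where their summed counts were 0 in all 3 libraries.

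**Figure D5:**
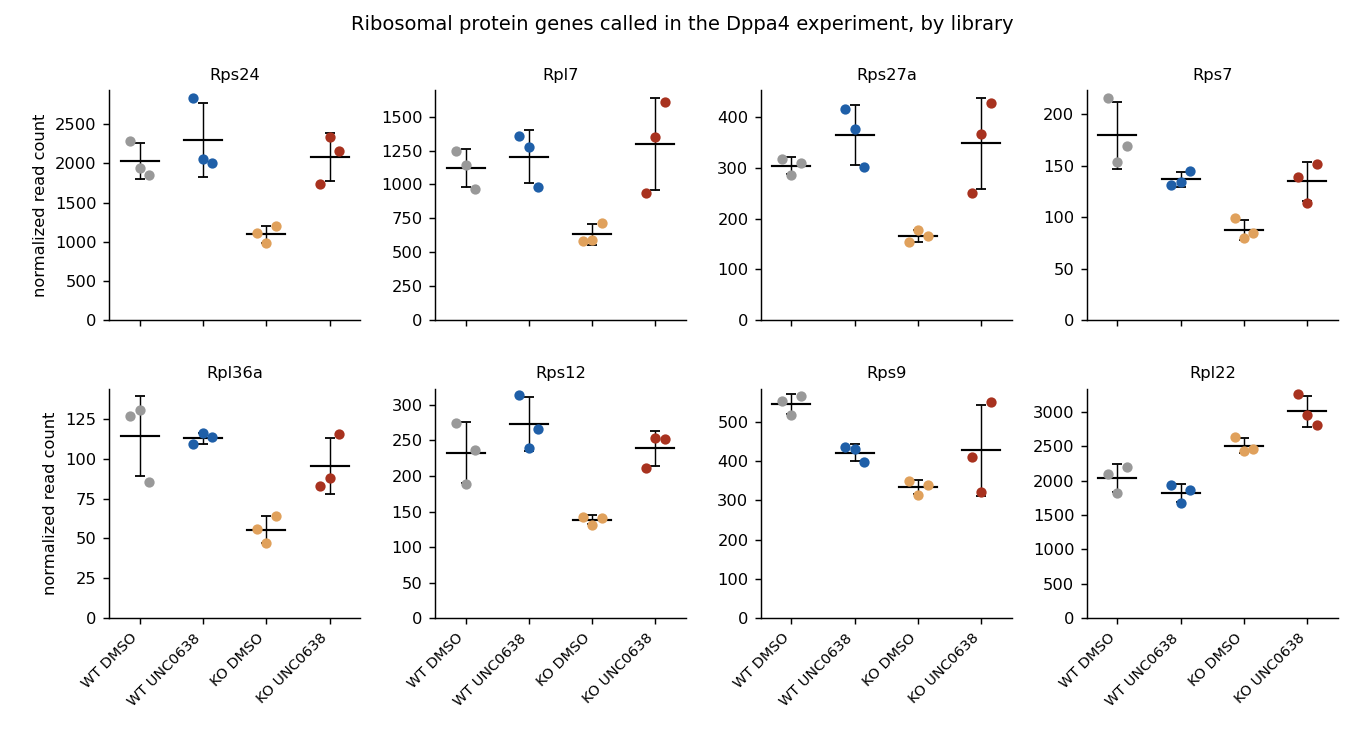
Normalized read count (linear axes from 0) of 8 ribosomal protein genes called in a comparison of the Dppa4 experiment. Points are libraries, with the mean as a line and the SD of 3 libraries as error bar. KO DMSO has the lowest mean in all of them but Rpl22, and in Rpl22 all 6 KO libraries lie above all 6 WT libraries.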

How the data were processed

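Expression was measured by poly(A) RNA-seq. The authors trimmed reads with Trim Galore 0.6.7, aligned them to mm10 with STAR 2.7.10 with introns switched off and 1 random place kept for reads with several, counted genes of GENCODE with TEcounts and divided the counts by DESeq2 1.34.0 size factors. The deposited signal columns are these normalized counts, as group means for 3 experiments and per library for the Dppa4 experiment. Columns with the authors' own comparisons (fold changes and p-values) were not used. There were 0 columns of other series.

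Group means were compared as log2((mean + 1)/(mean + 1)) for genes with an average of at least 10 over both groups, with a count of differences past 1.2-fold and no test. For the Dppa4 libraries whole reads were recovered for 100% of values (tolerance 0.01 reads). limma 3.58.1 with a trend was fitted to log2(normalized count + 1) for all 4 groups after edgeR 4.0.16 filterByExpr (R 4.3.3), a gene being called at an adjusted p under 0.05. The fit was tested on simulated data. edgeR quasi-likelihood and DESeq2 1.42.0 on those reads were alternatives, as were a replicate block, pseudogene sums, omission of libraries, and other pseudocounts, scalings and filters. The mean of at least 500, the omission of both libraries together and a replicate block within each genotype were chosen after seeing the data. Per the labels 3 clones of each line received both treatments. Deviations of same-numbered DMSO and UNC0638 libraries correlated at 0.10 to 0.43 in WT (all 3 pairs over 0.1) and at -0.092 to 0.15 in KO (1 of 3). The main fit did not pair libraries in either line. The block within each genotype joined them by number in both WT and KO. Positions are from a GENCODE annotation of the same build and start windows from RefSeq (GRCm38.p6). Matched starts are missing for 20 members.

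The members and lists were chosen with earlier results of these data known. Named members are the 5 highest and 5 lowest of each comparison of group means, those called by limma, and Rplp0, Rplp1, Rplp2, Rpsa, Rpl3, Rps6 and Rpl41. In other lists the highest and lowest are named, and other genes named in the text were chosen after their values were seen. A few genes that this rule names are not reported here.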

Additional observations from a re-analysis of the deposited data

How the results depend on the processing

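Group means carry no error, and low counts, junction reads and copies limit single members. At 1.5-fold the counts of members past the threshold were 0 at 24 h, 7 d and 15 d of dTAG, between the DMSO groups of the time course, in both Recovery comparisons and for dTAG in mESC, 5 and 13 for 2CLC against mESC in DMSO and dTAG, and 1 for dTAG in 2CLC. With named pseudogenes added they were 1 in place of 5 at 7 d, 3 in place of 5 between the DMSO groups, 25 in place of 9 for Recovery against dTAG and 10 in place of 24 for dTAG in mESC, and 4 members changed sign, to 0.14 for Rpl28 (2CLC against mESC, DMSO), 0.32 for Rps13 and 0.018 for Rpsa (the same, dTAG) and 0.10 for Rpl39 (dTAG in 2CLC). Centring gave 6 in place of 12 at 15 d and 3 in place of 9 for Recovery against dTAG. A mean of at least 500, which leaves fewer genes, gave 4 for Recovery against DMSO, 11 and 13 for 2CLC against mESC in DMSO and dTAG, and 5 and 9 for dTAG in mESC and 2CLC. In the Dppa4 experiment DESeq2 called 6 members for UNC0638 in KO and 14 for KO against WT in DMSO, where limma called 3 and 8, and the cause was not tested. Over all genes edgeR and DESeq2 called 44 and 635 for UNC0638 in KO, 997 and 1902 for KO against WT in DMSO and 780 and 1433 under UNC0638, against 101, 1145 and 772 by limma. With no filter, or without WT DMSO replicate 3 and KO UNC0638 replicate 3, UNC0638 in KO gave 0. An absolute log2 fold change of at least 1 left 2 members for KO against WT in DMSO and 0 under UNC0638. Leaving out each library in turn gave 0 to 8 members for UNC0638 in KO, 1 to 14 for KO against WT in DMSO, 0 to 1 under UNC0638 and 0 for the other comparisons. Over all genes it gave 2 to 615 for UNC0638 in KO, 319 to 1822 for KO against WT in DMSO and 201 to 890 under UNC0638. With the replicate number as a block 13 members were called for KO against WT in DMSO (1996 genes in all), and the other 4 counts stayed at 0, 3, 1 and 0. WT and KO clones are different lines, and 3 of 12 same-numbered pairs between them had a correlation over 0.1, so this block joins libraries by number alone, although 9 of 12 libraries correlated best with their own number. With the block within each genotype, chosen after seeing the data, 0 members were called for UNC0638 in WT, 3 in KO (306 genes in all, and 346 with the number as a block over both genotypes, against 101) and 0 for the difference of the effects. A pseudocount of 10, TMM scaling, scaling on the genes outside the module and edgeR moved no count of members by over 1.5 times. With named pseudogenes added, limma called 8 members for KO against WT in DMSO, 3 for UNC0638 in KO and 1 under UNC0638. These counts match the main fit, yet 4 of its calls of members over these comparisons were lost.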

Other observations

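Across the 77 genes the difference between Recovery and DMSO 15 d went with transcript length (Spearman 0.51), as did that between Recovery and dTAG 15 d (0.53), so that short transcripts lay lower in Recovery. These are correlations across genes that share the same libraries, given as a description with no p. In the 8 other comparisons of group means the correlation with transcript length lay between -0.20 and 0.21.

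Of the genes outside the module, Eif3e, a subunit of the initiation factor eIF3 from the TOP class, fell by 2.00 in KO against WT in DMSO (SE 0.51, limma adjusted p = 0.029), Gas5, a TOP RNA that hosts small nucleolar RNAs, by 1.14 (SE 0.26, adjusted p = 0.017), and Taf1d, a factor of RNA polymerase I, by 1.03 (SE 0.23, adjusted p = 0.015). Not all called genes fell there. Of 18 genes of the TOP class 3 fell and 1 rose, and of 15 regulators 1 rose and none fell. Ncl, which encodes nucleolin, fell by 0.80 (adjusted p = 0.022) and Ddx21, a nucleolar helicase, by 0.72 (adjusted p = 0.031) in KO against WT under UNC0638.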
